A study of Mus musculus with 12 samples.

Results

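The 10 genes described here serve the synthesis of nitric oxide and the handling of arginine, its substrate, in RAW264.7 macrophages, a line of mouse cells. They were listed by function and found by symbol or current alias among the non-control probes, 13 probes in all. Of the 10 genes 9 were tested, with 11 of the 13 probes, among 13846 genes. For a probe to be tested, every array of 1 group or more (3 arrays each) had to show it well above background, so a gene can pass through the group where it is high, and the 9 do not stand for all 10. Slc7a2 did not pass.

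RNA was measured on 12 1-colour arrays, 3 in each of 4 groups that the labels call NS, HS, NS+LPS and HS+LPS. The exposures were 40 mM of extra NaCl, 10 ng/ml lipopolysaccharide (LPS, a component of bacterial outer membranes) or both, over 24 h. The abbreviations are not spelled out in the labels: HS is read here as high salt, the groups with the extra NaCl, and NS as the same cells without it. All 4 groups are this 1 cell line, and no label states whether each replicate was its own culture, so p-values rest on a spread between samples that may be purely technical.

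Macrophages make nitric oxide through the inducible synthase NOS2, which oxidises arginine to citrulline and needs the cofactor tetrahydrobiopterin. The cofactor is built from GTP by the enzymes of Gch1, Pts and Spr in that order and is kept reduced by that of Qdpr. Arginine enters the cell through carriers such as that of Slc7a2, is remade from citrulline by the enzymes of Ass1 and Asl, and is drawn off by arginases such as that of Arg2, while the enzyme of Ddah2 degrades methylarginines that inhibit the synthases.

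Levels are given as the processed probe signal divided by the array's own 75th percentile, and differences are on the log2 scale, negative where the exposed group was the lower. That percentile lay between 641 and 783 in the NS group and 613 and 656 in the HS group. With LPS it lay between 621 and 635 in NS+LPS and between 411 and 438 in HS+LPS. The 3 HS+LPS arrays were alone on slide 3 and were scanned on another day. Slide 1 carried all 6 arrays without LPS together with NS+LPS replicates 1 and 2, and slide 2 carried NS+LPS replicate 3. In comparisons with HS+LPS, group, slide and scan day cannot be told apart, and the part of array brightness in them was not tested. All 7 macrophage markers listed were above background on all 12 arrays. Of 19 markers of other cell types, 4 (Cd3e, Cd4, Kdr, Pecam1) were above background on all 12 arrays and 9 on none, the epithelial Epcam, Krt8 and Cdh1 among these. The summed level of the 19 lay between 5.38 and 5.75 in NS, 5.75 and 6.70 in HS, 7.11 and 7.15 in NS+LPS and 6.65 and 6.81 in HS+LPS. That of the 7 macrophage markers lay between 687 and 725, 668 and 744, 574 and 606, and 747 and 786 in the same order. Of the 19, 6 were tested, and the calls were those of S100a8, Pecam1 and Cd3e. Without LPS, salt raised 2 and lowered 1 of the 6 (18.2% and 18.8% of all genes). With LPS it raised 1 and lowered 2 (26.2% and 31.4%). LPS raised 2 and lowered none without added salt (28.6% and 35.1%), and raised 2 and lowered 1 with it (30.5% and 41.8%). The neutrophil marker S100a8 rose with LPS by 3.52 without and 3.01 with added salt and fell with salt (-0.53 without LPS, -1.03 with it), while S100a9 and Ly6g of the same list were on no array above background. The endothelial marker Pecam1 rose with LPS (0.85 and 0.86) and with salt (0.66 and 0.67), and the T cell marker Cd3e was higher with salt without LPS (0.19) and lower with salt under LPS (-0.38) and with LPS under salt (-0.48). Of the macrophage markers, Adgre1 and Cd68 were lower in all 4 comparisons, by -0.42 to -0.56 and -0.18 to -0.39. Itgam was higher in all 4, by 0.19 to 0.62. Without LPS, salt raised 1 and lowered 2 of the 7 (18.2% and 18.8% of all genes). With LPS it raised 4 and lowered 2 (26.2% and 31.4%). LPS raised 3 and lowered 4 without added salt (28.6% and 35.1%). Under salt LPS raised 3 and lowered 2 (30.5% and 41.8%). The part of these markers in the results was not tested.

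LPS raised Nos2, Gch1, Ddah2, Asl and Arg2 and lowered Pts and Qdpr, both with and without added salt. Without added salt 5 of the 9 genes tested were higher and 2 lower (adjusted p under 0.05), where 28.6% of all 13846 genes were higher and 35.1% lower. With added salt 5 were higher and 3 lower, Spr being the additional one, against 30.5% and 41.8% of all genes. The median log2 difference of the 9 was 0.27 without and 0.36 with added salt, beside -0.03 and -0.11 over all genes. The medians of absolute differences were close to those of all genes in both LPS comparisons, 0.32 beside 0.31 and 0.45 beside 0.40.

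Added salt lowered most of the members it changed. Without LPS, Gch1, Arg2, Pts and Asl were lower and Qdpr was higher, 4 and 1 of 9, where 18.8% of all genes were lower and 18.2% higher. With LPS, Gch1, Ddah2, Pts, Ass1 and Asl were lower and Nos2 and Qdpr higher, 5 and 2 of 9, against 31.4% and 26.2% of all genes. Without NS+LPS replicate 1 the count for salt with LPS was 4 in place of 7. The number of all genes called for salt with LPS ran from 7099 to 8175 over all alternatives. The median log2 difference of the 9 was -0.11 without LPS and -0.14 with it, beside 0.02 and -0.04 over all genes. The medians of absolute differences were 0.17 beside 0.16 over all genes without LPS and 0.38 beside 0.24 with it. In each of the 4 salt and LPS comparisons, the replicates of every member called did not overlap between the groups, and those of every member not called did. This describes the same values as the tests and is no further support. The share of all genes without overlap was not counted.

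**Figure D1:**
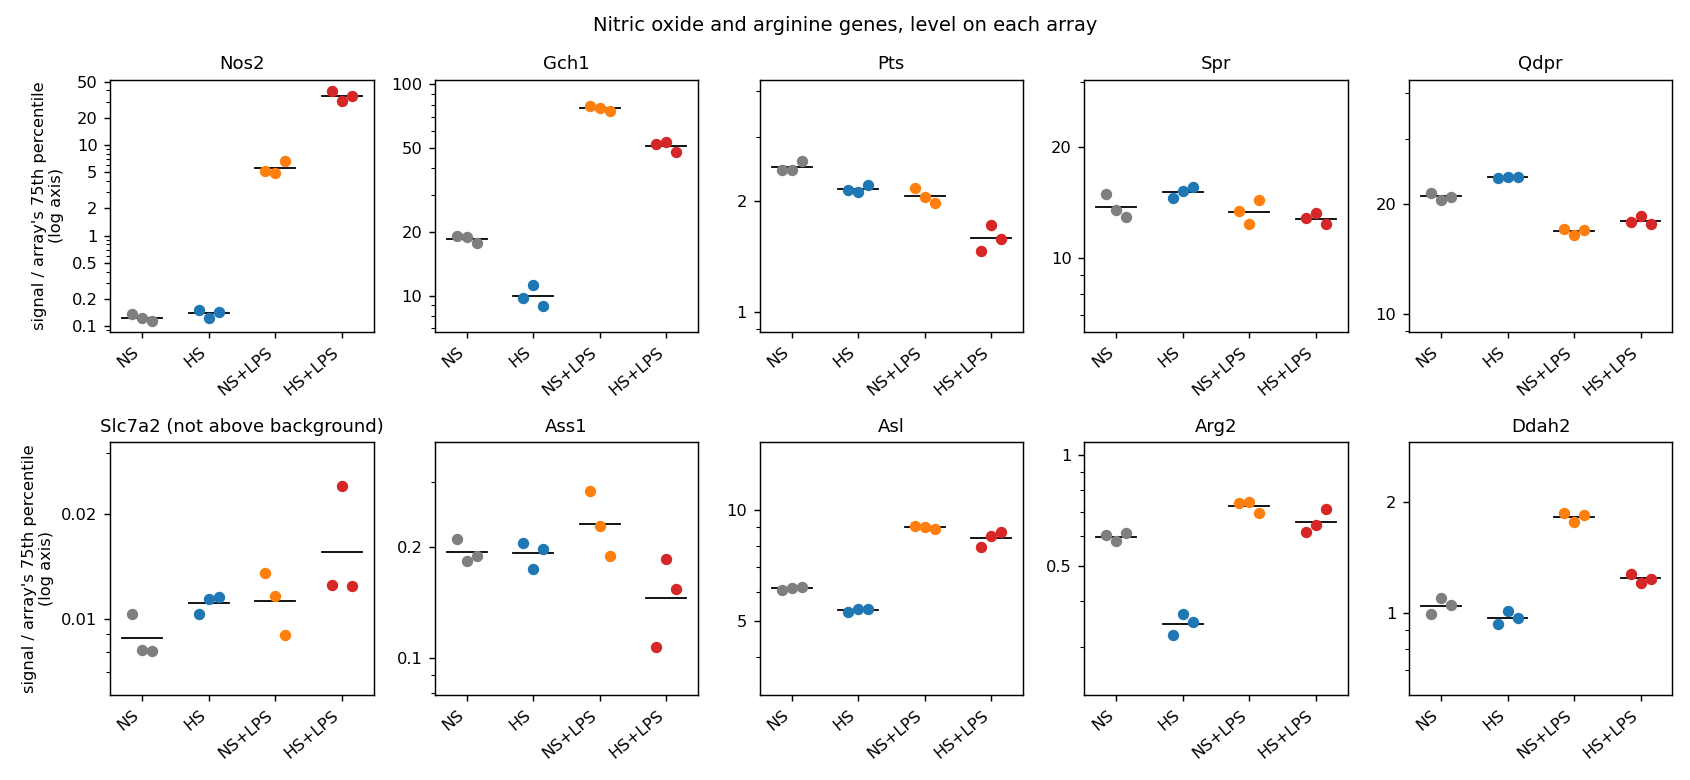
Level of each of the 10 genes on each of the 12 arrays, as processed signal over the array's 75th percentile on log axes whose ranges differ between panels; points are arrays, horizontal lines group means on the log scale, and Gch1, Qdpr and Ass1 are shown by their brightest probe. Nos2 lies at 0.115 to 0.149 in NS and HS and at 30.4 to 39.3 in HS+LPS, and Slc7a2 is not above background on any array.

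Nos2, the inducible synthase, was above background but dim until LPS was given. Its probe (chr11:78773567-78773626, mm9, in the RefSeq transcript from base 3930) read 0.135, 0.123 and 0.115 in NS and 0.149, 0.124 and 0.145 in HS. It read 5.18, 4.96 and 6.69 in NS+LPS and 39.3, 30.4 and 35.0 in HS+LPS. All 3 HS+LPS arrays lay above all 3 NS+LPS arrays, which lay above all 6 arrays without LPS, and the NS and HS arrays overlapped.

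LPS raised Nos2 44.8-fold without added salt (log2 difference 5.48, SE 0.13, adjusted p = 1.59e-10, limma) and 249.6-fold with it (7.96, SE 0.13, adjusted p = 8.6e-12). Under LPS, salt raised Nos2 6.24-fold (2.64, SE 0.13, adjusted p = 2.7e-07), while without LPS the difference was 0.16 (SE 0.13, adjusted p = 0.367). The salt difference was larger with LPS than without by 2.48 (SE 0.19, adjusted p = 1.56e-05). By size of the difference Nos2 stood at place 5 of 13846 genes for LPS with added salt, 56 for LPS without it and 64 for salt with LPS. In a culture measured whole, more cells making this RNA and more RNA per cell cannot be told apart. With normexp background correction the LPS differences were 4.52 and 6.90, while that of salt with LPS was 2.52. On slide 1 alone the LPS difference without added salt was 5.35.

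Gch1, for GTP cyclohydrolase, the first and rate-limiting enzyme of tetrahydrobiopterin synthesis, rose with LPS and fell with salt in both states. Its brighter probe (chr14:47775348-47775407, mm9, transcript base 926) read 19.2, 18.9 and 17.7 in NS and 9.78, 11.3 and 8.98 in HS. It read 78.7, 76.9 and 74.96 in NS+LPS and 52.1, 53.4 and 47.8 in HS+LPS. The 4 groups did not overlap, with HS lowest and NS+LPS highest.

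The LPS difference of Gch1 was 2.05 without added salt (4.13-fold, SE 0.08, adjusted p = 4.76e-09) and 2.36 with it (5.12-fold, adjusted p = 1.73e-09). Salt lowered it by a log2 difference of -0.90 without LPS (1.86-fold, SE 0.08, adjusted p = 2.09e-05) and of -0.59 with LPS (1.50-fold, adjusted p = 0.00014). The salt differences did not pass the test of a difference between them (0.31, SE 0.11, adjusted p = 0.052). That call was made in 11 of 24 alternatives, among them quantile normalization (adjusted p = 0.0169) and leaving out HS replicate 2 (adjusted p = 0.00824) or HS+LPS replicate 3 (adjusted p = 0.041), and its sign turned with the mean of both Gch1 probes (-0.04).

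A dimmer Gch1 probe further along the transcript (chr14:47773797-47773856, base 2477) gave another picture of LPS. It read 0.375, 0.379 and 0.386 in NS and 0.200, 0.184 and 0.197 in HS. It read 0.475, 0.535 and 0.395 in NS+LPS and 0.175, 0.213 and 0.159 in HS+LPS. Both probes fell with salt, the dimmer one by a log2 difference of -0.98 without LPS (adjusted p = 0.000171) and -1.36 with it (adjusted p = 8.94e-06). Its LPS differences, 0.29 (adjusted p = 0.0542) and -0.10 (adjusted p = 0.486), were not called, so the rise of Gch1 with LPS rests on the brighter probe.

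The 250 bases before the RefSeq start of Gch1 are shown because the gene moved with both exposures (chr14:47189414-47189663, GRCm38.p6, minus strand; sequence from RefSeq). They were searched on both strands for the NF-kB consensus, TTCNNNGAA (as STAT factors bind), GAAANNGAA (interferon regulatory factors), TGGAAA (the core bound by NFAT5, the tonicity-responsive factor), TTNNGNAA (C/EBP factors) and TATAAA. Capitals mark the matches, which do not overlap each other: TATAAA on the opposite strand from 188 bases before the start, TTNNGNAA from 153 and the NF-kB consensus from 10.
Gch1 promoter: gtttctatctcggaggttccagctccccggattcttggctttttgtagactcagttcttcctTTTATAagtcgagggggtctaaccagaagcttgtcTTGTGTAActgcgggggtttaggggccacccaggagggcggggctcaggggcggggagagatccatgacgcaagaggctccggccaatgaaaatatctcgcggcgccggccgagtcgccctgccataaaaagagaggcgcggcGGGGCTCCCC
Of 32851 RefSeq promoters of this length, 12.4% hold TATAAA, 36.8% TTNNGNAA and 7.25% the NF-kB consensus. A match describes letters and is not evidence of binding.

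**Figure D2:**
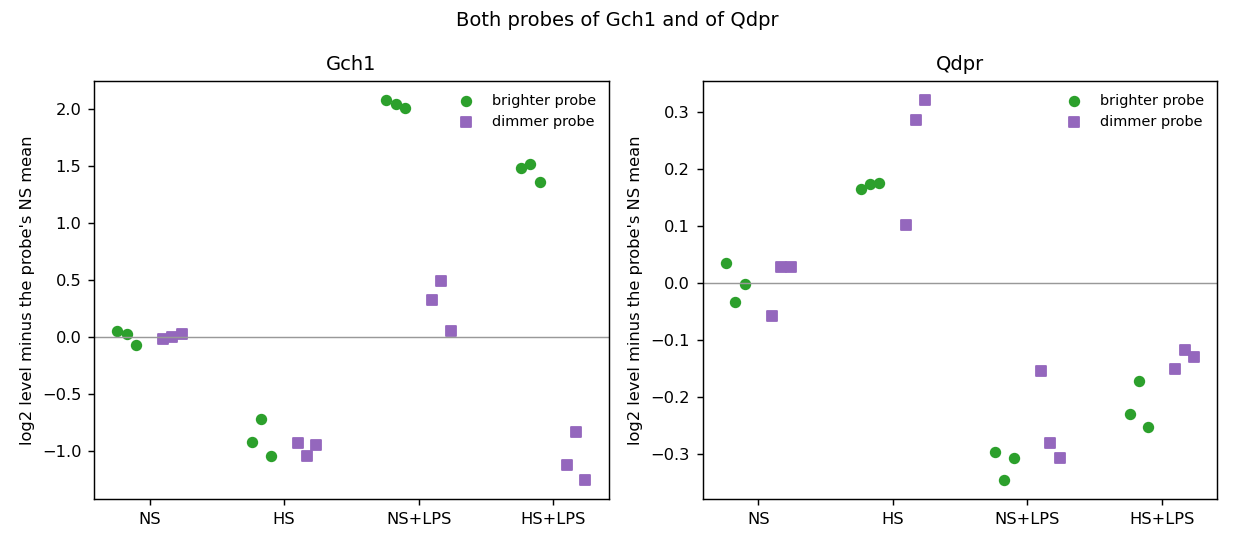
Log2 level of the brighter (circles) and dimmer (squares) probe of Gch1 and of Qdpr on each of the 12 arrays, each minus that probe's NS mean, with y ranges that differ. The probes of Gch1 part under LPS, where the brighter rose by 2.05 and 2.36 and the dimmer differed by 0.29 and -0.10, whereas both Qdpr probes fell with LPS.

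Pts, for the enzyme of the second step of cofactor synthesis, fell with each exposure. It read 2.43, 2.43 and 2.57 in NS, 2.15, 2.12 and 2.22 in HS, 2.17, 2.06 and 1.98 in NS+LPS and 1.47, 1.72 and 1.58 in HS+LPS (chr9:50330140-50330199, mm9). NS was highest and HS+LPS lowest without overlap, and HS and NS+LPS overlapped. Pts was lower by -0.26 with LPS alone (SE 0.06, adjusted p = 0.00306), by -0.45 with LPS under salt (adjusted p = 6.49e-05) and by -0.38 with salt under LPS (adjusted p = 0.000426). The fall with salt without LPS was smaller (-0.20, SE 0.06, adjusted p = 0.0277), and the call ended in 6 of 25 alternatives, including the leaving out of NS replicate 2, NS replicate 3, HS replicate 1 or HS replicate 2 (adjusted p between 0.0527 and 0.0919).

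Spr, for sepiapterin reductase, which completes the cofactor, was called in 1 of the 4 salt and LPS comparisons. It read 14.9, 13.5 and 12.9 in NS, 14.6, 15.2 and 15.6 in HS, 13.4, 12.4 and 14.4 in NS+LPS and 12.8, 13.2 and 12.4 in HS+LPS (chr6:85083852-85083911). Of the pairs compared, HS and HS+LPS were the one without overlap. LPS under added salt lowered it by -0.24 (SE 0.07, adjusted p = 0.00855), and the other comparisons were not called, with log2 differences of 0.14 for salt without LPS, -0.06 for salt with LPS and -0.04 for LPS without added salt (SE 0.07 each, adjusted p between 0.141 and 0.619). With array weights salt without LPS was called (0.17, adjusted p = 0.031).

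Qdpr, for the reductase that recycles the oxidised cofactor, moved against Gch1, lower with LPS and higher with salt without LPS. Its brighter probe (chr5:45825474-45825533, transcript base 1131) read 21.4, 20.5 and 20.9 in NS, 23.5, 23.6 and 23.6 in HS, 17.0, 16.5 and 16.9 in NS+LPS and 17.8, 18.6 and 17.6 in HS+LPS. The groups did not overlap, HS being highest and NS+LPS lowest. LPS lowered it by -0.32 without added salt (SE 0.04, adjusted p = 2.03e-05) and by -0.39 with it (adjusted p = 3.41e-06), and salt raised it by 0.17 without LPS (adjusted p = 0.00403).

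The rise of Qdpr with salt under LPS was small (0.10, adjusted p = 0.0375). That call ended in 12 of 25 alternatives, which include leaving out any of NS+LPS replicates 1 to 3, HS+LPS replicates 1 or 2, or HS replicates 2 or 3, and its sign turned with normexp (-0.0054). The second Qdpr probe (chr5:45825799-45825858, transcript base 806) read between 10.3 and 15.9 over the 12 arrays. It rose with salt without LPS (0.24, adjusted p = 0.0155) and fell with LPS by -0.25 without salt (adjusted p = 0.00579) and -0.37 with it (adjusted p = 0.000373). Its salt difference under LPS, 0.11, was not called (adjusted p = 0.149).

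Slc7a2, for the cationic amino acid carrier CAT2, was not well above background on any of the 12 arrays (chr8:42002869-42002928). Its raw processed signal lay between 5.40 and 9.89, so only the statement that it was dim can be made and no direction is given.

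Ass1, for argininosuccinate synthase, which joins citrulline and aspartate, gave a low processed signal, between 47.0 and 180 on the 12 arrays. Its level read 0.210, 0.183 and 0.189 in NS, 0.205, 0.174 and 0.198 in HS, 0.284, 0.227 and 0.189 in NS+LPS and 0.107, 0.185 and 0.154 in HS+LPS (chr2:31376068-31376127, transcript base 1508). HS+LPS lay below NS+LPS without overlap, and every other pair of groups that was compared overlapped.

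Salt under LPS lowered Ass1 by -0.67 (1.59-fold, SE 0.19, adjusted p = 0.0136). The call ended with normexp (-0.18, adjusted p = 0.198), with cyclic loess (-0.49, adjusted p = 0.0526) and without NS+LPS replicate 1 (-0.52, adjusted p = 0.0551). The LPS differences of Ass1 were 0.25 without salt (adjusted p = 0.284) and -0.40 with it (adjusted p = 0.0826), and its salt difference without LPS was -0.01 (SE 0.19, adjusted p = 0.968). Without HS+LPS replicate 2 the fall with LPS under salt was called (-0.58, adjusted p = 0.0197), and on slide 1 alone the LPS difference without salt was called (0.39, adjusted p = 0.0221). The array files list a second transcript for this probe, that of the transcribed pseudogene Gm5424, so signal of the gene and of the pseudogene cannot be told apart. A second Ass1 probe (chr2:31375998-31376057, base 1438) was above background on 2 NS arrays, 1 HS, 1 NS+LPS and no HS+LPS array and was not tested.

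Asl, for argininosuccinate lyase, which releases arginine in the next step, was higher on every LPS array than on any array without LPS. It read 6.08, 6.15 and 6.20 in NS and 5.31, 5.40 and 5.41 in HS. It read 9.10, 9.03 and 8.92 in NS+LPS and 7.96, 8.53 and 8.74 in HS+LPS. The 2 LPS groups did not overlap each other either, and within each state the salt group was the lower. The probe's 60 bases span 586 on the genome (chr5:130487964-130488549, mm9), so they cross an exon junction.

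LPS raised Asl 1.47-fold without added salt (0.55, SE 0.04, adjusted p = 5.69e-07) and 1.56-fold with it (0.65, adjusted p = 1.51e-07). Salt lowered it by -0.19 without LPS (SE 0.04, adjusted p = 0.00349). The fall with salt under LPS (-0.10, adjusted p = 0.048) ended in 19 of 24 alternatives, including without any 1 of 11 arrays, HS+LPS replicate 3 being the exception.

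Arg2, for the mitochondrial arginase, which turns arginine into ornithine and urea, was lowest in salt without LPS. It read 0.604, 0.583 and 0.611 in NS and 0.324, 0.369 and 0.351 in HS. It read 0.738, 0.744 and 0.694 in NS+LPS and 0.617, 0.646 and 0.710 in HS+LPS (chr12:80252972-80253031). HS stood apart below all 9 other arrays, whereas NS+LPS and HS+LPS overlapped.

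Salt without LPS lowered Arg2 1.73-fold (-0.79, SE 0.06, adjusted p = 1.24e-05), and with LPS the difference was not called (-0.14, adjusted p = 0.0774) except without HS+LPS replicate 3 (-0.20, adjusted p = 0.0231). The salt differences differed by 0.64 (SE 0.09, adjusted p = 0.000527). LPS raised Arg2 1.21-fold without salt (0.27, SE 0.06, adjusted p = 0.00309) and 1.89-fold with it (0.92, adjusted p = 3.75e-07).

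Ddah2, for dimethylarginine dimethylaminohydrolase, which clears methylated arginines, rose with LPS and rose less when salt was added. It read 0.996, 1.10 and 1.05 in NS and 0.933, 1.01 and 0.972 in HS. It read 1.88, 1.77 and 1.84 in NS+LPS and 1.28, 1.21 and 1.24 in HS+LPS (chr17:35198877-35198936). The LPS groups lay above the others and apart from each other, NS+LPS highest, and NS and HS overlapped.

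LPS raised Ddah2 1.75-fold without salt (0.80, SE 0.05, adjusted p = 1.91e-07) and 1.28-fold with it (0.35, adjusted p = 8.69e-05). Salt lowered it 1.47-fold under LPS (-0.56, SE 0.05, adjusted p = 9.4e-06), and without LPS the difference was -0.11 (adjusted p = 0.111), which was called with cyclic loess (-0.14, adjusted p = 0.0459) and with array weights (-0.15, adjusted p = 0.016). The salt difference was lower with LPS than without by -0.45 (SE 0.07, adjusted p = 0.00104), the opposite sign to that of Nos2. Its 250 bases before the RefSeq start are shown beside those of Gch1, with which it shares the rise with LPS and the fall with salt under LPS (chr17:35058785-35059034, GRCm38.p6, plus strand). Capitals mark its only match to the motifs searched, TTCNNNGAA from 58 bases before the start, which 7.02% of promoters hold.
Ddah2 promoter: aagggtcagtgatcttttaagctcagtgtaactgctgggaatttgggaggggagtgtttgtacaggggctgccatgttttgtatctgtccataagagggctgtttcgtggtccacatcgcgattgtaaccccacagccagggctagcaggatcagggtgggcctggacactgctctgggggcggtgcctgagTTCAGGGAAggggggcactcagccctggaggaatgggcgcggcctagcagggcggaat
Promoters of 6 of the 10 genes were matched. That of Spr holds TGGAAA from 217 bases before the start (18.6% of promoters do) and that of Qdpr TTNNGNAA from 77, while those of Ass1 and Pts hold none of the motifs, GAAANNGAA included (7.13% of promoters).

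**Figure D3:**
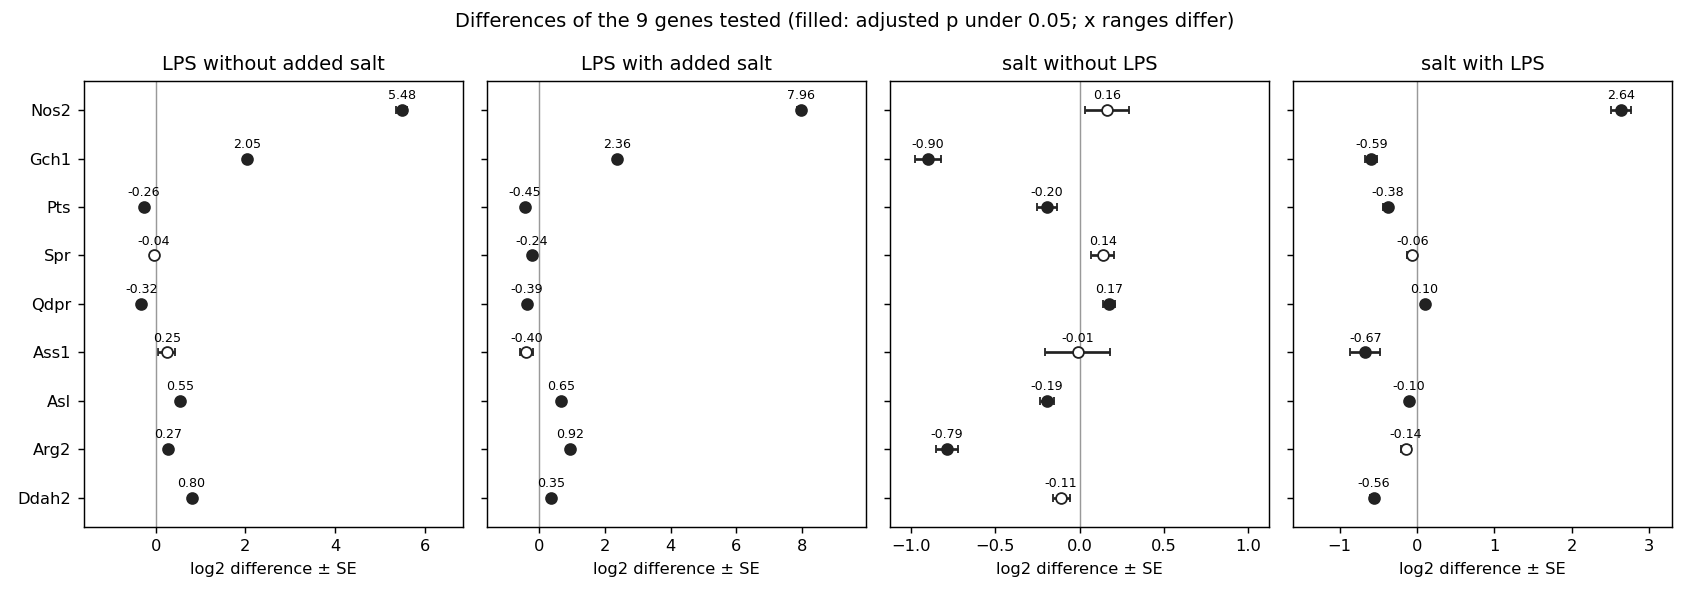
Log2 difference of each of the 9 genes tested in the 4 salt and LPS comparisons, with standard errors as bars (3 arrays a group, x ranges differ); filled points have an adjusted p under 0.05. Nos2 is the largest difference in 3 of the panels, at 5.48, 7.96 and 2.64, and Gch1 in salt without LPS, at -0.90.

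The test of whether salt acted differently with LPS than without called 3 of the 9 genes. Nos2 and Arg2 were higher, 2 of 9, where 17.4% of all genes were, and Ddah2 lower, 1 of 9, where 18.8% of all genes were. For the other 6 genes tested the differences between the salt effects lay between -0.65 (Ass1, SE 0.27, adjusted p = 0.0864) and 0.31 (Gch1). Without HS+LPS replicate 2 the test called 5 genes, Ass1 (-0.83, adjusted p = 0.0303) and Pts (-0.24, adjusted p = 0.0337) in addition. Without NS+LPS replicate 3 it called Ass1 (-0.80, adjusted p = 0.0496). Over all alternatives the test called between 3824 and 5805 of all genes. The 2 salt comparisons and the 2 LPS comparisons share arrays with each other, so their values are given side by side and not as separate support.

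Genes around these 10 were taken from 9 lists of neighbouring functions, 74 genes in all, of which 72 had a probe by symbol and 56 were tested. LPS raised 23 and lowered 18 of the 56 without added salt, where 28.6% of all genes were higher and 35.1% lower, and raised 22 and lowered 19 with it, against 30.5% and 41.8%. Salt raised 11 and lowered 15 without LPS (18.2% and 18.8% of all genes) and raised 17 and lowered 16 with LPS (26.2% and 31.4%). The 11 include Ifnb1, which was below background in both NS and HS. The median log2 differences of the 56 lay between -0.04 and 0.06 in these 4 comparisons.

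Other arginine carriers were all tested, 7 of 7. Some of them were dim, above background on 1 or none of the 3 HS+LPS arrays. The counts and medians of the list include their values. LPS raised 4 and lowered 1 without added salt (28.6% and 35.1% of all genes) and raised 2 and lowered 1 with it (30.5% and 41.8%). Salt lowered 3 and raised 1 without LPS (18.8% and 18.2% of all genes) and lowered 4 and raised 1 with it (31.4% and 26.2%). The median log2 difference of the list was 0.26 for LPS without added salt and 0.11 with it. For salt it was -0.35 in LPS-treated cells and -0.20 in the others. Slc7a7 and Slc3a2, the light and heavy chains of the exchanger y+LAT1, moved the same way: levels of Slc7a7 were 8.20 in NS and 6.13 in HS, against 16.4 in NS+LPS and 14.1 in HS+LPS (means of 3 arrays). LPS raised Slc7a7 by 1.00 and 1.20 and Slc3a2 by 0.47 and 0.57, without and with salt, and salt lowered them by -0.42 and -0.38 without LPS and by -0.22 and -0.28 with it. Slc7a6, the light chain of y+LAT2, did the reverse, falling with LPS (-0.48 and -0.69) and rising with salt (0.45 without LPS, 0.23 with it). The call for salt with LPS ended without NS+LPS replicate 2 (0.19, adjusted p = 0.0685) or HS+LPS replicate 1 (0.22, adjusted p = 0.0521).

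Of 14 genes of the urea cycle and of other arginine and ornithine use 8 were tested. Arg1, the cytosolic arginase, was not above background on any array. Gamt and Gatm, the enzymes that make creatine from arginine and glycine, fell with LPS, Gamt by -1.55 without salt and -1.08 with it and Gatm by -0.49 and -0.33. Pycr1, which makes proline, was lower with salt without LPS (-0.59) and higher with LPS under salt (0.51). With the mean of its probes the second call ended (0.37, adjusted p = 0.222).

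Of 10 genes of polyamine synthesis and turnover, a pathway that starts from ornithine, the product of arginase, 9 were tested. Salt raised 7 and lowered 1 of the 9 with LPS (26.2% and 31.4% of all genes) and raised 4 and lowered 2 without it (18.2% and 18.8%). LPS raised 5 and lowered 4 without added salt (28.6% and 35.1% of all genes) and raised 5 and lowered 3 with it (30.5% and 41.8%). The list's median for salt was 0.25 with LPS and 0.17 without it, beside -0.04 and 0.02 over all genes. Odc1, ornithine decarboxylase, read 62.1 in NS and 71.8 in HS, against 259 in NS+LPS and 356 in HS+LPS (means of 3 arrays). LPS raised Odc1 by 2.06 and 2.31, Sat1, which acetylates spermidine and spermine, by 1.25 and 1.47, and Smox, which oxidises spermine, by 1.16 and 1.30. Salt under LPS raised Odc1 by 0.46, Sat1 by 0.48 and Smox by 0.31, and without LPS raised Odc1 by 0.21 and Sat1 by 0.27. With the mean of the Odc1 probes its LPS differences were 2.89 and 3.07, and its call for salt without LPS ended when only NS and HS were fitted (adjusted p = 0.0551).

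Of the 11 genes of methylarginine formation and removal 8 were tested, all of them protein arginine methyltransferases, whose products feed the methylarginine pool. Prmt2 rose with LPS by 1.30 and 1.87, and its salt difference was -0.31 without LPS and 0.26 with it (interaction 0.56, adjusted p = 9.9e-05). Prmt7 and Prmt5 were lower with salt under LPS (-0.51 and -0.28). LPS lowered 4 of the 8 and raised 1 without added salt (35.1% and 28.6% of all genes) and lowered 6 and raised 1 with it (41.8% and 30.5%). Ddah1, the other dimethylarginine hydrolase, was not above background on any array.

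Of 5 partners of the cofactor 4 were tested, and salt under LPS raised 2 and lowered 2 (26.2% and 31.4% of all genes). Gchfr, the feedback regulator of GTP cyclohydrolase, fell with LPS without salt (-0.46) and was higher with salt under LPS (0.42, interaction 0.46, adjusted p = 0.00203), and its LPS difference under salt was 0.00. Pcbd2, a pterin dehydratase, was lower with salt in both states (-0.47 and -0.56). Agmo, a lipid monooxygenase that uses the cofactor, read 0.255 in NS and 2.57 in HS, against 0.229 in NS+LPS and 3.51 in HS+LPS (means of 3 arrays), a rise with salt of 3.31 and 3.93. Tph2, a tryptophan hydroxylase, was above background on the NS and HS arrays only. In the main scaling LPS left Tph2 at least 1.35-fold lower without salt and at least 1.50-fold lower with it. Over the alternatives its fitted log2 differences ran from -2.58 to -0.43 without salt and from -2.76 to -0.40 with it. The second bound therefore does not hold in all of them. Th, tyrosine hydroxylase, rose by 0.45 with LPS without salt, a call that ended in 4 of 25 alternatives, among them leaving out NS replicate 1 or NS+LPS replicate 2 or 3 (adjusted p between 0.0522 and 0.0593).

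Of the other synthases, Nos3 rose with LPS by 0.66 and 0.69, from a level of 0.475 in NS to 0.751 in NS+LPS. Nos1 fell with LPS by -1.69 without salt, where 2 of 3 NS+LPS arrays were above background, and was at least 2.27-fold lower with LPS under salt, where no HS+LPS array was. With normexp these Nos1 differences were -0.70 and -0.24, the latter not called (adjusted p = 0.0855). Of 6 targets and removal genes of nitric oxide 2 were tested: Adh5, which breaks down S-nitrosoglutathione, fell with LPS (-0.46 and -0.67), calls that ended with normexp (-0.16 and -0.16, adjusted p = 0.0762 and 0.0784), and the guanylate cyclase genes Gucy1a1, Gucy1a2 and Gucy1b1 did not pass the filter.

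Regulators of Nos2 transcription were tested for 8 of 8 genes, and LPS raised 7 and lowered 1 in either state, with medians of 0.60 and 0.62, where 28.6% of all genes were higher and 35.1% lower without added salt and 30.5% and 41.8% with it. Salt raised 2 and lowered 2 without LPS (18.2% and 18.8% of all genes) and raised 3 and lowered 2 with it (26.2% and 31.4%). In the main scaling Ifnb1, interferon beta, was at least 26.4-fold higher with LPS without salt and at least 34.2-fold with it. Salt under LPS raised Ifnb1 by 0.46. With normexp the LPS differences of Ifnb1 were 3.27 and 3.54 on the log2 scale, which fall short of both bounds. Its call for salt without LPS, 1 of the 2 rises counted above, lies below background in both groups and gives no fold. That call ended in 11 of 23 alternatives. Irf1 rose with LPS (0.98 and 0.65) and fell with salt, by -0.22 without LPS and -0.55 with it (interaction -0.33, adjusted p = 0.0133). Its call for salt without LPS ended without NS replicate 1 (-0.18, adjusted p = 0.0605) or HS replicate 3 (-0.20, adjusted p = 0.0649).

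**Figure D4:**
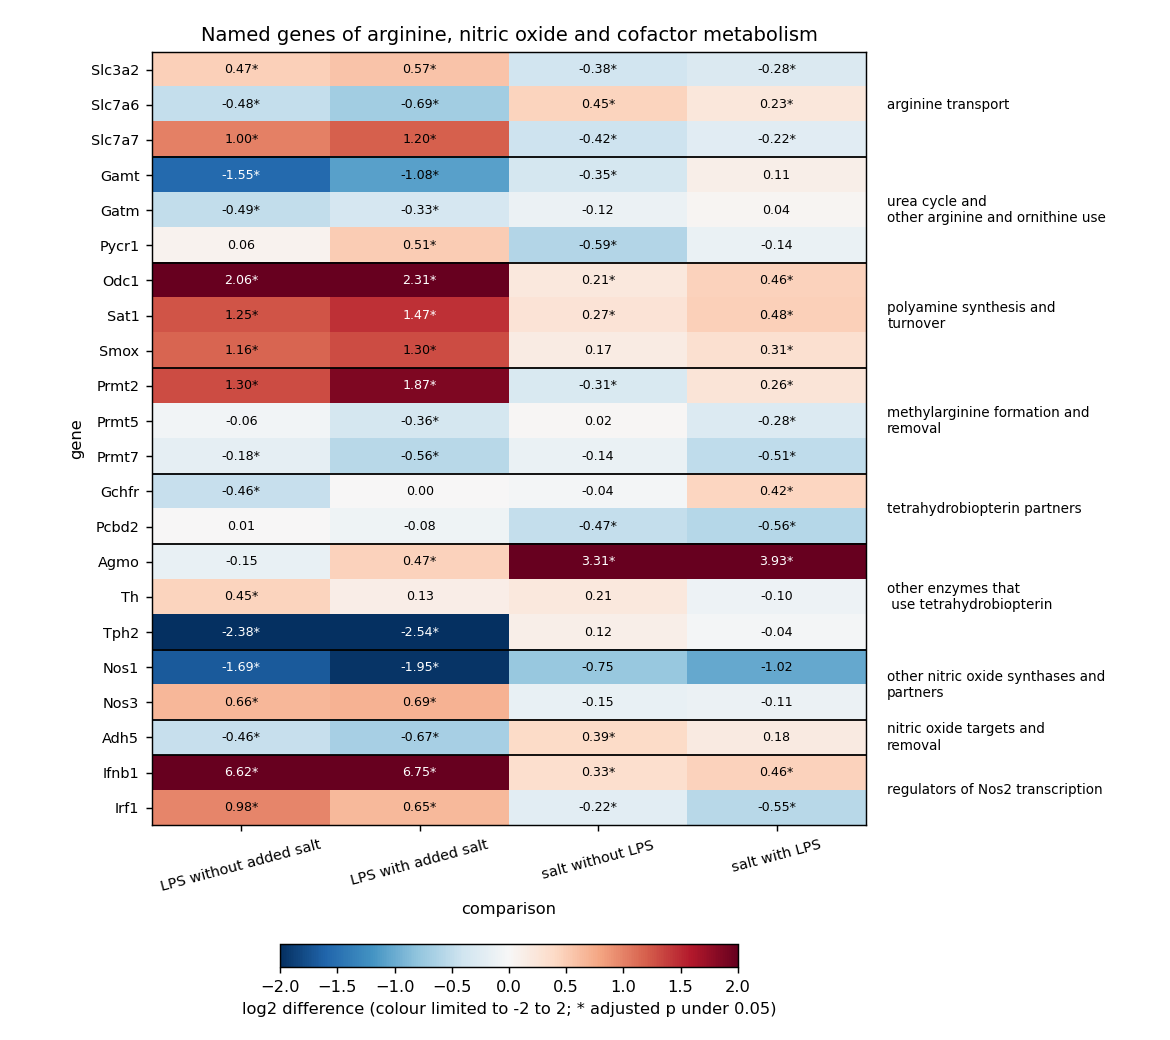
Log2 differences of the tested genes described here from the 9 lists (rows) in the 4 comparisons (columns), with colours limited at 2 in both directions and a star at an adjusted p under 0.05; values of genes below background in a group, such as Ifnb1 and Tph2 against a group where no array was above background, are fitted values and no folds. Odc1, Agmo and Ifnb1 hold the deepest reds, Odc1 for LPS at 2.06 and 2.31 and Agmo for salt at 3.31 and 3.93.

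Genes whose pattern lay nearest to that of Nos2 were ordered by the root mean square difference over the 12 arrays after each gene was centred on its own mean, out of 13845. The 6 nearest were Urah (0.405), an enzyme of uric acid breakdown, Rgs16 (0.601), a regulator of G proteins, Spink2 (0.68), a protease inhibitor, Pdpn (0.747), podoplanin, Clip4 (0.753) and Ifnb1 (0.794). Of these only Rgs16 was above background on all 12 arrays, at 0.146 in NS and 0.337 in HS, against 15.4 in NS+LPS and 39.8 in HS+LPS. The other 5 were above background on all LPS arrays and, apart from Urah on 1 NS array, on none without LPS. The distances and order of these 5 therefore rest on values below background on the arrays without LPS, and they passed the filter through the LPS groups. Among the members Gch1 came nearest, at place 352, followed by Asl at 1842, Arg2 at 1998 and Ddah2 at 2334, and Pts was farthest at 10412.

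**Figure D5:**
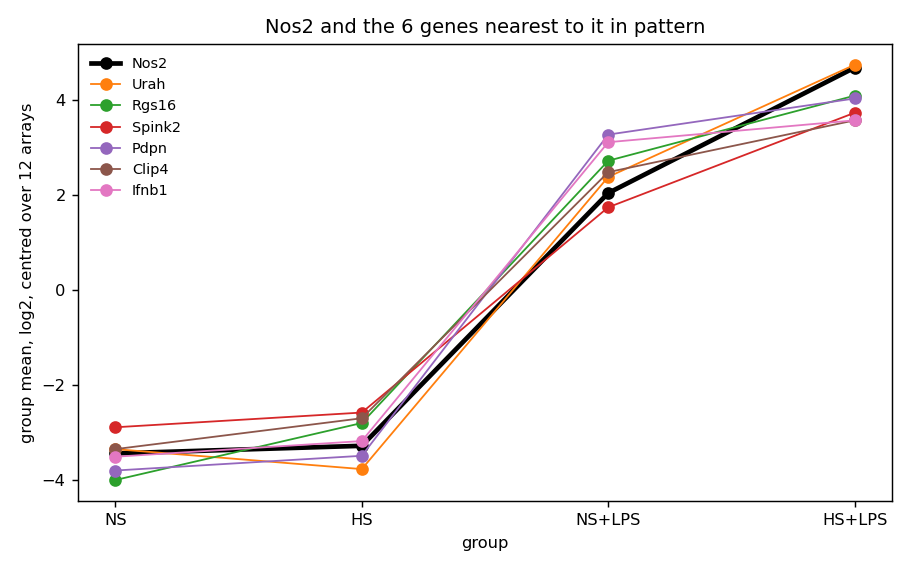
Group means of Nos2 (thick black line) and the 6 genes nearest to it in pattern, on the log2 scale after centring each gene over the 12 arrays; points are means of 3 arrays. Nos2 runs from -3.44 in NS and -3.28 in HS to 2.04 in NS+LPS and 4.68 in HS+LPS, and each of the others shows a smaller step between the LPS groups.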

How the data were processed

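RNA of 12 RAW264.7 samples was hybridised to 1-colour Agilent arrays (design 028005). The scanner values are intensity, which Feature Extraction 10.7.3.1 had corrected for background and spatial trend, per the file headers, and flags of another kind mark outlier, saturated and background spots, per the file headers as 0 or 1. How the deposited value table, also intensity, was normalized is not given in the sources used here. Each of its columns had a median between 28.8 and 28.81 and a Spearman correlation of at least 0.999964 with the same array's scanner values.

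Values were log2 processed signal minus each array's 75th percentile over 59305 non-control spots. Outlier spots were left out, none was saturated, and repeated spots were averaged, giving 55681 probes, with 10 dropped. Symbols came from the files, updated by RefSeq accession (27509 probes matched, 22411 had no symbol), and probe coordinates are mm9. The brightest probe stood for a gene. All 12 arrays were fitted by limma 3.58.1 (R 4.3.3), leaving 8 residual degrees of freedom. The 2-sided moderated tests were adjusted by Benjamini-Hochberg over all 13846 genes. The method was tried on simulated data with independent noise and no difference of slide, scan day or brightness. That trial cannot speak to such differences. Members, gene lists, markers, motifs and alternatives were chosen with earlier results of these data known. Genes named are the members, up to 3 called genes of each list with the largest differences, Arg1, Nos1, Nos3 and Ddah1, and the 6 genes nearest to Nos2; some genes that this rule picks from the lists are not reported here. Amd1 and Pycr3 had no probe by symbol. The labels do not say whether a replicate number marks a shared culture or day. Correlations of same-numbered deviations were -0.202 to 0.123, which with 3 arrays a group cannot settle this. Folds are lower bounds where no array of the dimmer group was above background, against the higher of the lowest signal above background and the probe's own. These bounds hold for the main scaling only. Precision is limited by 3 arrays per group. Figures were drawn with matplotlib 3.10.9. Alternatives were normexp (offset 50), quantile and cyclic loess normalization, the deposited table, other filters and probe rules, an intensity trend, array weights, only the groups compared, blocks for replicate number and slide, slide 1 alone, and leaving out each array.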

Additional observations from a re-analysis of the deposited data

Results flagged for a closer look

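For 3 of the 9 genes tested the salt effect differed between cells with and without LPS by the interaction test in limma. Of all 13846 genes, 17.4% were called higher and 18.8% lower by the same test. Nos2 went from a salt difference of 0.16 without LPS to 2.64 with it, a change of 2.48 (adjusted p = 1.56e-05). Arg2 went from -0.79 to -0.14, a change of 0.64 (adjusted p = 0.000527), and Ddah2 from -0.11 to -0.56, a change of -0.45 (adjusted p = 0.00104). All 3 kept their direction and their call in each of the 23 alternatives for which the interaction could be fitted, with ranges of 2.39 to 2.61 for Nos2, 0.50 to 0.73 for Arg2 and -0.48 to -0.39 for Ddah2. The 3 HS+LPS arrays lay on a slide and scan day of their own, which cannot be told apart from this test. No group of 3 arrays was examined for outliers.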

How the results depend on the processing

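Over all alternatives the number of members called ran from 4 to 7 for salt without LPS (5 in the main result), 4 to 8 for salt with LPS (7), 7 to 8 for LPS without added salt (7), 8 to 9 for LPS with added salt (8) and 3 to 5 for the interaction (3). The number of all genes called ran from 3886 to 6620 for salt without LPS and from 7099 to 8175 for salt with LPS. For LPS it ran from 8170 to 10652 without added salt and from 9153 to 10156 with it, and for the interaction from 3824 to 5805. Some alternatives tested another number of genes. The count over all genes never moved by more than 1.5 times. The count of members did so for salt with LPS without NS+LPS replicate 1 (4), and for the interaction with array weights (5) and without HS+LPS replicate 2 (5). Of 1099 log2 differences of members, 1024 kept their direction and side of the threshold. With the sign kept, 41 lost the call and 21 gained one. The sign turned in 13, some of which lost the call as well. Of 1742 of the other named genes, 1684 kept both direction and side, and 58 lost the call. The cause of these changes was not tested. Salt without LPS turned for Ass1 with normexp (0.076), array weights (0.028), without NS replicate 1 (0.046) or without HS replicate 2 (0.056), leaving out 1 array giving -0.060 to 0.056. LPS without added salt turned for Spr with cyclic loess (0.0057), without NS replicate 1 (0.016) or NS+LPS replicate 2 (0.015), leaving out 1 array giving -0.095 to 0.016. The Qdpr interaction turned with quantile normalization (0.0093) and the deposited table (0.0094), and Qdpr under salt with LPS with normexp (-0.0054). The other Gch1 probe turned LPS with added salt (-0.095) and the interaction (-0.39), the latter also with the mean of probes (-0.038). With the replicate number as a block, a number whose meaning the labels do not give, the members called were 4 for salt without LPS, 5 for salt with LPS, 7 and 8 for LPS and 4 for the interaction. The counts over all genes with this block lie within the ranges above. No slide block can tell HS+LPS and its slide apart, and slide 1 alone gave no value for comparisons with HS+LPS. Fitting only the groups compared does not apply to the interaction. Dim probes limit Ass1 and Slc7a2.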
